A study of Homo sapiens with 4 samples.

Results

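In the table of transcript abundances from the human leukaemia line K562, 12 gene names began with NPIP, and PDXDC1 was taken with them, which gave 13 of the 11213 gene names listed. They carried 42 of the 32551 transcripts, 36 under NPIP names and 6 under PDXDC1. NPIPA3 and PDXDC1 were picked from their difference between the knockdown and control libraries, and the other NPIP names because they are copies of NPIPA3. The values of all 13 are therefore given as a description of that contrast, with no test. All 13 names and 41 of the 42 transcripts passed the filter of a mean of at least 1 TPM, the unit of all levels here (transcript abundance corrected for length, as a share of the listed transcripts, so that every library has an equal sum).

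K562 is an established line from a chronic myelogenous leukaemia and carries the BCR-ABL1 fusion. A lentivirus brought in a control hairpin (shControl) or a hairpin that targets PHF8 (shPHF8), and puromycin at 2 µg/ml was applied after 72 hours. The enzyme PHF8 removes methyl groups from histones H3 and H4. The genotype was labelled as wild type in every library. There were 2 libraries per group, and it is not clear from the labels if shPHF8 numbers 1 and 2 are replicates or separate hairpins, or if each library had a culture of its own. The spread between the libraries of a group may thus be technical. PHF8 itself was at 25.9 and 22.5 TPM in the shControl libraries and at 6.06 and 6.42 TPM in the shPHF8 libraries. The globin genes HBG1, HBG2 and HBE1 ranged from 1617 to 4833 TPM, so the erythroid genes typical of K562 were present, and each was higher in both shPHF8 libraries (ratios of 1.60, 1.76 and 1.34). PTPRC, a marker of other blood cells, was at 209 and 170 TPM in shControl and at 91.2 and 89.4 TPM in shPHF8. The part of these differences in the results below was not tested. COL1A1 reached at most 1.63 TPM, and EPCAM was at 146 to 169 TPM. The number of reads per library is unknown, because TPM keep no record of it.

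The NPIP genes (nuclear pore complex interacting protein family) lie in blocks of chromosome 16 that were copied many times during primate evolution, and they fall into an NPIPA and an NPIPB branch. Because copies differ at few bases, a short read often matches several of them, and a program that divides such reads can move abundance between names without any change in the cell. Exchange between listed copies of equal length leaves their summed TPM as it is. Between copies of unequal length it does not, because TPM are per length, so sums are also given with each TPM multiplied by the length of its transcript. PDXDC1 lies among these blocks and encodes a protein with a pyridoxal-dependent decarboxylase domain. In GENCODE release 29 the protein-coding genes there run in the order BFAR, PLA2G10, NPIPA3, NPIPA2, NOMO1, NPIPA1, PDXDC1, NTAN1, RRN3 and NPIPA5.

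The sequences below show how little separates the transcripts on which the values turn. NPIPA2 and NPIPA3 have 3 listed transcripts each, which pair by number. NPIPA2-001 and NPIPA3-001 are identical over their 954 bases. NPIPA2-003 and NPIPA3-003 are 1053 bases long and differ by 1 substitution, C971T, and NPIPA2-002 and NPIPA3-002, of 1110 and 1155 bases, by C1028T in the 1110 bases that align. Positions are counted from the 5′ end of the transcript, with the NPIPA2 base first, and both substitutions are the same exonic site in the coding sequence. The 61 bases around it are given 5′ to 3′ from the GRCh38 build used by GENCODE, plus strand, with the base that differs in capitals (NPIPA2 at chr16:14765301-14765361, NPIPA3 at chr16:14726181-14726241).
NPIPA2-003: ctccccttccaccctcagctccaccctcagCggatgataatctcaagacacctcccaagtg
NPIPA3-003: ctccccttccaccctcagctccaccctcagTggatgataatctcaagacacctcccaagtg

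In PDXDC1, the transcripts 004 and 017 differ inside the coding sequence by 3 bases at the start of exon 3, where 017 uses a later splice acceptor. The stretch across the junction of exons 2 and 3 is printed with those bases in capitals; it lies within chr16:14997797-14998372 on the plus strand of GRCh38.
PDXDC1-004: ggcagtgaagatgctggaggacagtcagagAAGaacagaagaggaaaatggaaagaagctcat
PDXDC1-017: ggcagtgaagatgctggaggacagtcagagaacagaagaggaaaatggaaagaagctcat

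Both transcripts also lack the 81-base coding exon that is exon 4 of PDXDC1-001 (chr16:15001776-15001856), which marks the other group of PDXDC1 transcripts and is given here for that reason.
PDXDC1-001: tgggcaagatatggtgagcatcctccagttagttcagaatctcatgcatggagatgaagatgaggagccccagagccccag

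PDXDC1 (ENSG00000179889.18_2) was at 33.1 and 31.9 TPM in the shControl libraries and at 88.8 and 93.7 TPM in the shPHF8 libraries. Both shPHF8 values lay far above both shControl values, and the libraries of a group differed little. The group means were 32.5 ± 0.797 and 91.2 ± 3.40 TPM (SD, n = 2), a ratio of 2.81. On the log2(TPM + 1) scale the difference was 1.46 ± 0.09 (SE from the limma fit across all genes). A lower shPHF8 value at least 2.5 times the higher shControl value was found for 65 of the 10972 genes tested, or 0.592%. This cut, like those given for its transcripts below, lies under the values of PDXDC1 itself, which was picked for this difference. Such shares are a description and no measure of rarity. In RNA from many cells, more cells with PDXDC1 RNA and more of it per cell cannot be told apart.

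The difference sat in 1 of the 6 PDXDC1 transcripts. PDXDC1-017 was at 4.91 and 5.01 TPM in the shControl libraries and at 72.1 and 71.9 TPM in the shPHF8 libraries, a ratio of 14.5 and a difference of 3.61 ± 0.16 on the log2 scale (limma fit across all transcripts). Its share of the gene's TPM was 14.8% and 15.7% in shControl and 81.1% and 76.8% in shPHF8, so it was a minor transcript in the control libraries and the main one in the knockdown libraries. A lower shPHF8 value at least 10 times the higher shControl value was listed for 363 of the 30266 transcripts tested (1.2%), and for 12 of them (0.0396%) when the shControl mean was also at least 1 TPM.

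PDXDC1-004 had the opposite pattern. It was at 15.0 and 13.6 TPM in the shControl libraries and at 3.42 and 3.37 TPM in the shPHF8 libraries, a ratio of 0.237 and a log2 difference of -1.80 ± 0.23. It was the leading transcript in shControl, with 45.5% and 42.7% of the gene's TPM, and held 3.85% and 3.59% in shPHF8. Among the 7370 genes with at least 2 tested transcripts, 18 (0.244%) had 1 transcript at least 3 times higher, from at least 1 TPM in shControl, and another at least 3 times lower that kept at least 0.1 TPM in shPHF8, in both cases between the nearest libraries.

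The other 4 PDXDC1 transcripts were low or overlapped between the groups, apart from PDXDC1-016. PDXDC1-016, which ends in another last exon, was at 6.57 and 6.75 TPM in shControl and at 9.44 and 13.8 TPM in shPHF8, with both shPHF8 libraries above but apart from each other (0.70 ± 0.28 on the log2 scale). PDXDC1-001 was at 2.60 and 2.99 TPM in shControl and at 1.14 and 0.941 TPM in shPHF8 (-0.90 ± 0.35), lower in both shPHF8 libraries. PDXDC1-003 followed the library number and not the group, with 1.81 and 3.56 TPM in shControl and 1.87 and 3.58 TPM in shPHF8. PDXDC1-202 was at 2.13 and 0 TPM in shControl and at 0.928 and 0.0008 TPM in shPHF8, and was not tested. For comparison, both shPHF8 libraries lay above both shControl libraries in 21.0% of all transcripts tested and below them in 22.2%.

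**Figure D1:**
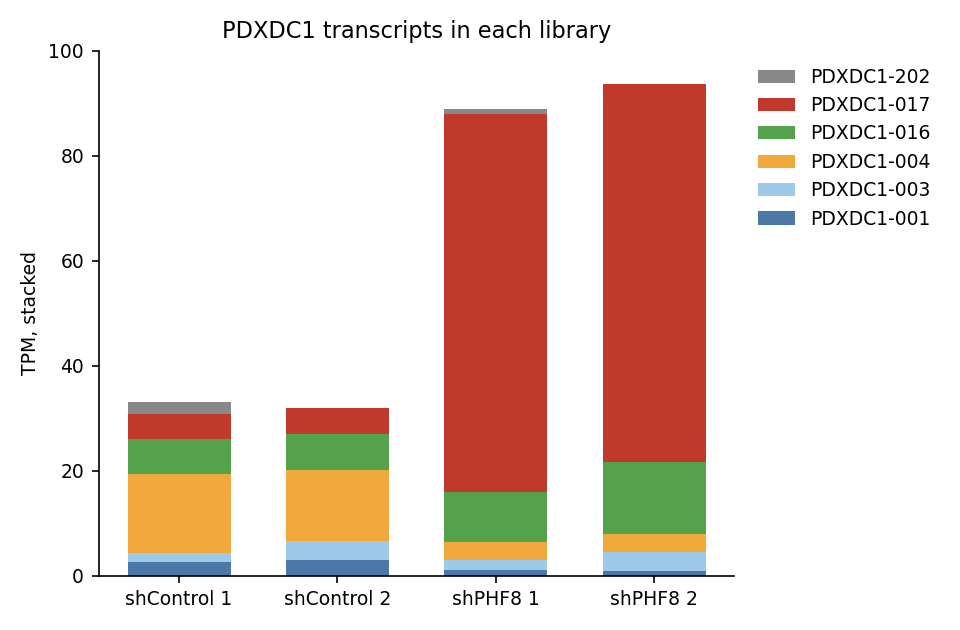
TPM of the 6 PDXDC1 transcripts, stacked, in each of the 4 libraries (n = 2 per group; the height of a bar is the TPM of the gene). The bars of the shPHF8 libraries reach 88.8 and 93.7 TPM and consist mostly of PDXDC1-017, while the shControl bars reach 33.1 and 31.9 TPM with PDXDC1-004 as the largest piece.

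Sums over PDXDC1 transcripts that share a feature are given for their levels; any sum with PDXDC1-017 in it is higher in shPHF8 because of that transcript. The 3 transcripts without the 81-base exon summed to 22.1 and 18.6 TPM in shControl and to 76.4 and 75.3 TPM in shPHF8, a ratio of 3.73. The 3 transcripts with it summed to 11.0 and 13.3 TPM in shControl and to 12.4 and 18.3 TPM in shPHF8, a ratio of 1.27, and these groups overlapped. The sum of 017 and 004 was 20.0 and 18.6 TPM in shControl and 75.5 and 75.3 TPM in shPHF8, a ratio of 3.91, or 3.05 when each TPM was multiplied by the transcript's length. The 4 transcripts that end in the same last exon as 017 had a ratio of 3.32. PDXDC1-017 thus differed by far more TPM than PDXDC1-004, and the 5 transcripts other than 017 together went from 28.2 and 26.9 TPM to 16.8 and 21.7 TPM.

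PDXDC1-017 is also short, which matters because TPM are per length. It has 2683 bases against 3775 for PDXDC1-004, and its last exon has 589 bases against 1672, with 332 against 1415 bases after the coding sequence. The mean length of PDXDC1 transcripts, weighted by TPM, was 3267 and 3131 bases in shControl and 2686 and 2628 bases in shPHF8. When each TPM was multiplied by its transcript's length, a quantity closer to the amount of reads, the ratio of the gene between the groups was 2.33 in place of 2.81. The gene was higher in both shPHF8 libraries on either measure.

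Few positions in PDXDC1-017 belong to it alone. Of its 2653 windows of 31 bases, 26 (0.98%) were in no other listed PDXDC1 transcript, and of its 2584 windows of 100 bases, 95 (3.68%). These are the windows across the junction printed above, since the rest of 017, including its last exon, is contained in 004. The table lists 6 of the 18 PDXDC1 transcripts annotated in GENCODE release 29, and how reads from the others would be divided was not tested.

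NTAN1, the next gene on the opposite strand, encodes an N-terminal asparagine amidohydrolase and was looked at after its values had been seen. It was at 3.95 and 1.38 TPM in shControl and at 18.0 and 7.65 TPM in shPHF8, with wide spread in both groups and both shPHF8 libraries higher (1.90 ± 0.57, limma with Benjamini-Hochberg adjusted p = 0.182). PDXDC1-001 shares 358 exon bases with NTAN1, whereas 004, 016 and 017 share 0. The strandedness of the libraries is not given in the sources used here, so reads from the shared bases cannot be told apart between PDXDC1-001 and NTAN1. RRN3, beyond NTAN1, was at 56.2 and 60.5 TPM in shControl and at 60.3 and 58.4 TPM in shPHF8.

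NPIPA3 (ENSG00000224712.12_2) was at 13.9 and 13.3 TPM in the shControl libraries and was listed at 0 in both shPHF8 libraries. No fold is given against a listed 0, which can also come from how an abundance was estimated. Of the 10972 genes tested, 13 (0.118%) were listed at 0 in both shPHF8 libraries and above 0 in both shControl libraries. NPIPA3 was the single one among them with at least 10 TPM in both shControl libraries (0.00911%), and no gene showed the reverse at that level. That cut lies just under the shControl values of NPIPA3, which was picked for this difference. The share is therefore a description and no measure of rarity.

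The 3 NPIPA3 transcripts did not hold their shares between the shControl libraries. NPIPA3-001 was at 5.91 and 3.09 TPM, NPIPA3-002 at 7.80 and 0.106 TPM and NPIPA3-003 at 0.147 and 10.1 TPM. The leading transcript was thus 002 in the one library and 003 in the other, while the gene's sum differed by less than 1 TPM between them. All 3 were listed at 0 in both shPHF8 libraries, as were 253 of the 30266 transcripts tested that were above 0 in both shControl libraries (0.836%).

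NPIPA2 (ENSG00000254852.8_2), the closest copy, was at 13.1 and 16.7 TPM in shControl and at 10.4 and 12.5 TPM in shPHF8 (-0.35 ± 0.20 on the log2 scale). It was lower in both shPHF8 libraries, but the nearest libraries of the groups (13.1 and 12.5 TPM) were closer together than the libraries within a group. NPIPA2-003 was at 4.44 and 13.8 TPM in shControl and at 8.80 and 10.8 TPM in shPHF8. NPIPA2-002 was at 4.04 TPM in shControl 1 and listed at 0 in the other 3 libraries, and NPIPA2-001 was at 4.58 and 2.90 TPM in shControl and at 1.59 and 1.69 TPM in shPHF8.

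**Figure D2:**
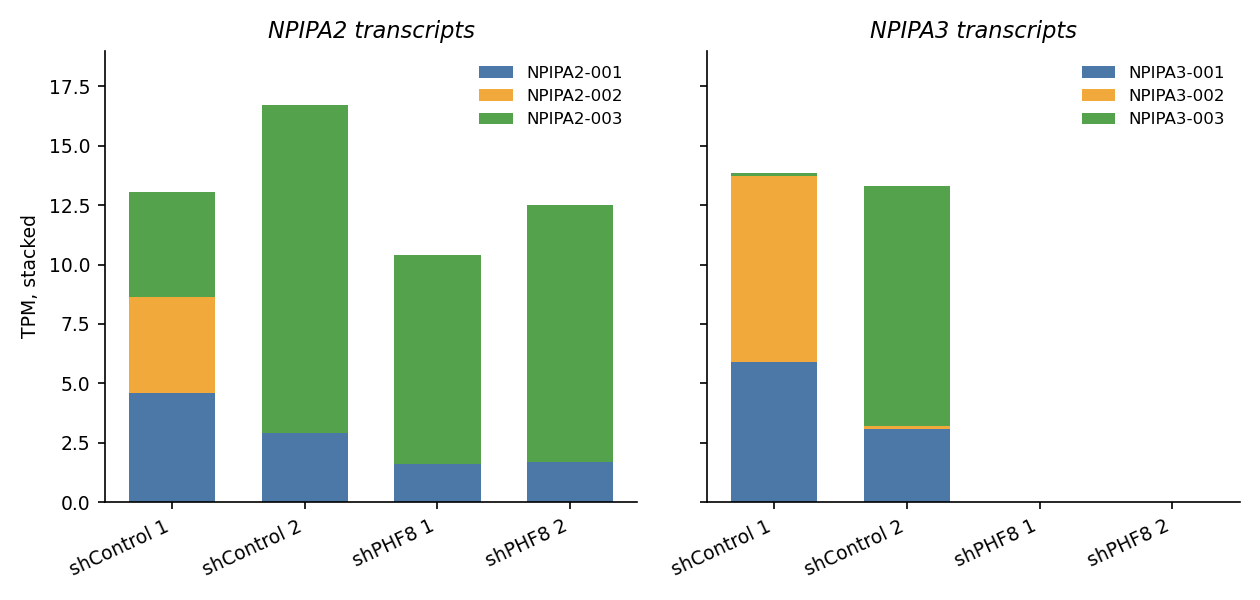
TPM of the 3 transcripts of NPIPA2 (left) and of NPIPA3 (right), stacked, in each of the 4 libraries (n = 2 per group). NPIPA3 bars are absent in both shPHF8 libraries, and the 002 and 003 transcripts change places between the shControl libraries in NPIPA3, with 7.80 TPM of 002 in shControl 1 and 10.1 TPM of 003 in shControl 2.

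The pair was summed because reads can be exchanged between NPIPA2 and NPIPA3, whose listed transcripts have 954 to 1155 bases. The sum was 26.9 and 30.0 TPM in shControl and 10.4 and 12.5 TPM in shPHF8, that is 28.5 ± 2.18 and 11.4 ± 1.48 TPM (SD, n = 2) and a ratio of 0.402. Multiplied by transcript length, the ratio was 0.4, and the groups did not overlap on either measure. The identical 001 transcripts summed to 10.5 and 5.99 TPM in shControl and to 1.59 and 1.69 TPM in shPHF8. The 002 transcripts summed to 11.8 and 0.106 TPM in shControl and were listed at 0 in shPHF8, and the 003 transcripts summed to 4.59 and 23.9 TPM in shControl and to 8.80 and 10.8 TPM in shPHF8. Of these 3 sums, only that of the 003 transcripts overlapped between the groups, and both the 002 and 003 sums differed widely between the shControl libraries.

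Among the other NPIPA genes, NPIPA5 was at 31.3 and 32.2 TPM in shControl and at 27.7 and 28.1 TPM in shPHF8, the steadiest of the branch (-0.18 ± 0.11 on the log2 scale). NPIPA8 was at 29.5 and 24.7 TPM in shControl and at 19.7 and 21.2 TPM in shPHF8 (-0.38 ± 0.15). NPIPA7 was at 17.9 and 17.2 TPM in shControl and at 13.2 and 16.6 TPM in shPHF8 (-0.23 ± 0.17). Each of these had both shPHF8 libraries below both shControl libraries, by amounts close to the spread within a group for NPIPA7. NPIPA1, at 4.77 and 12.1 TPM in shControl and 8.48 and 4.45 TPM in shPHF8, differed more within groups than between them (-0.28 ± 0.52, from -0.87 to 0.32 when 1 library was left out).

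Of the NPIPB genes, NPIPB4 stood above its shControl values in both shPHF8 libraries. It was at 66.7 and 70.8 TPM in shControl and at 89.8 and 83.9 TPM in shPHF8, a log2 difference of 0.33 ± 0.09, or 0.28 to 0.38 when 1 library was left out. Of its 7 transcripts, NPIPB4-016 was at 15.4 and 17.6 TPM in shControl and at 22.0 and 24.6 TPM in shPHF8, and NPIPB4-017 was at 19.4 and 27.1 TPM in shControl and at 27.8 and 29.9 TPM in shPHF8. Both of these were higher in both shPHF8 libraries, though for 017 the nearest libraries of the groups were close together. NPIPB4-004 was higher too, and NPIPB4-202 lower, both at under 5 TPM.

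NPIPB5, the most abundant NPIP name, was at 100 and 91.5 TPM in shControl and at 91.9 and 97.6 TPM in shPHF8 (-0.02 ± 0.09). NPIPB3 was at 38.5 and 45.1 TPM in shControl and at 41.3 and 48.6 TPM in shPHF8 (0.10 ± 0.15). NPIPB11 stayed between 4.95 and 6.07 TPM in all 4 libraries and NPIPB8 between 1.58 and 2.64 TPM. These 4 names overlapped between the groups. NPIPB15 was at 3.31 and 2.09 TPM in shControl and at 1.78 and 1.68 TPM in shPHF8 (-0.42 ± 0.30), lower in both shPHF8 libraries and near the filter. By mean TPM over the 4 libraries the order from the top was NPIPB5, NPIPB4, NPIPB3, NPIPA5, NPIPA8, NPIPA7, NPIPA2, NPIPA1, NPIPA3, NPIPB11, NPIPB15 and NPIPB8. NPIPB15 and NPIPB8 were not separated by more than their spread. NPIPA3 has no fixed place in that order, since it was above both NPIPA1 values in shControl and below both in shPHF8.

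**Figure D3:**
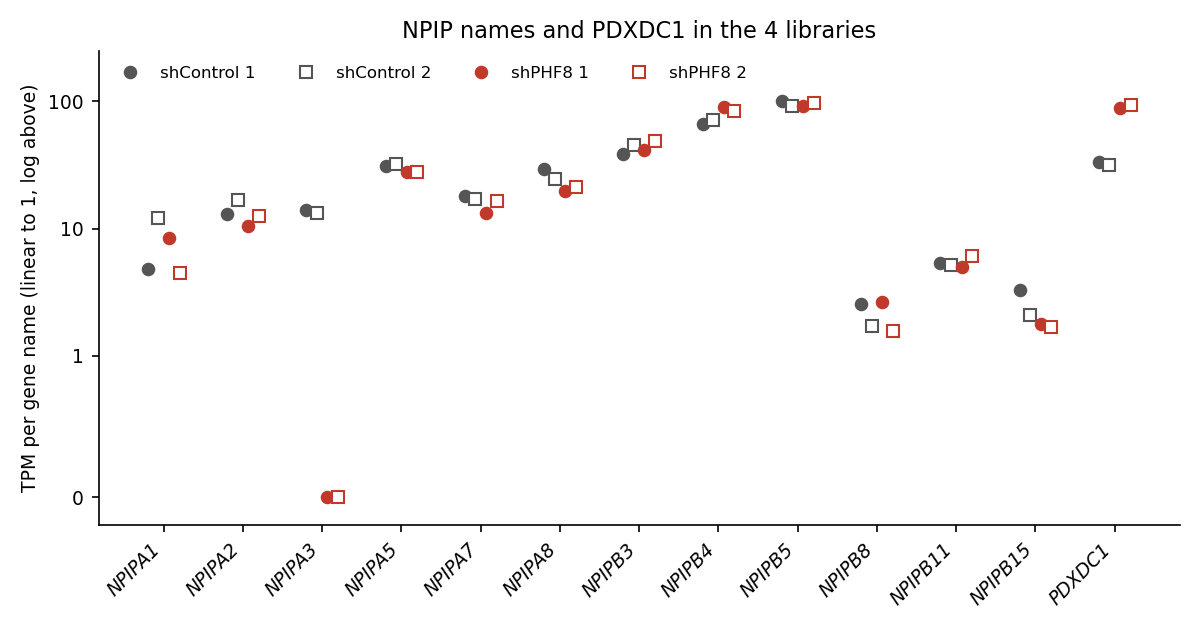
TPM of the 12 NPIP names and PDXDC1 in each library (grey, shControl; red, shPHF8; circles, number 1; squares, number 2; the axis is linear to 1 TPM and logarithmic above). NPIPA3 lies at 0 in both shPHF8 libraries, PDXDC1 lies at 88.8 and 93.7 TPM there against 33.1 and 31.9 TPM in shControl, and the other NPIP names differ by -0.42 to 0.33 on the log2 scale.

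Over the 12 NPIP names, both shPHF8 libraries were below both shControl libraries in 6 (NPIPA2, NPIPA3, NPIPA5, NPIPA7, NPIPA8 and NPIPB15), above in 1 (NPIPB4) and overlapping in 5. Among all 10972 genes tested, 29.3% were below, 26.0% above and 55.3% in either direction. The 11 names other than NPIPA3 had log2 differences from -0.42 to 0.33 with a median of -0.18, beside a median of -0.02 over all genes tested. Their median absolute difference was 0.23, beside 0.25 over all genes, a similar size. Of the 36 NPIP transcripts, 10 were below, 4 above and 22 overlapping, and 43.2% of all transcripts tested did not overlap in either direction. At a Benjamini-Hochberg adjusted p of 0.05, limma called 0 of all genes higher and 0 lower (0.0% in each direction; 9.9% and 12.1% at an unadjusted p under 0.05), and 1 of all transcripts higher (0.0033%), of EEF1A1, and 0 lower. That transcript count was 0 without the filter, without the trend, with the replicate block and with any 1 of the 4 libraries left out, and 4 with a minimum of 5 TPM or quantile normalization.

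The NPIPA and NPIPB names were also summed apart. The 6 NPIPA names summed to 110 and 116 TPM in shControl and to 79.5 and 82.8 TPM in shPHF8, that is 113 ± 4.09 and 81.2 ± 2.33 TPM (SD, n = 2) and a ratio of 0.717. Without NPIPA3 the NPIPA sum was 96.6 and 103 TPM in shControl and 79.5 and 82.8 TPM in shPHF8, a ratio of 0.814. Multiplied by transcript length, over the 15 of 16 NPIPA transcripts with a known length, these ratios were 0.728 and 0.832. The NPIPA sum was thus lower in both shPHF8 libraries with and without NPIPA3 on either measure, and no other NPIPA name had a higher mean in shPHF8.

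The 6 NPIPB names summed to 217 and 216 TPM in shControl and to 232 and 239 TPM in shPHF8, a ratio of 1.09, higher in both shPHF8 libraries. The shControl and shPHF8 means were 216 and 236 TPM for this sum and 68.8 and 86.9 TPM for NPIPB4. NPIPB4 was the only NPIPB name higher in both shPHF8 libraries, while NPIPB15 was lower and the others overlapped. Multiplied by transcript length (400 to 3653 bases), the NPIPB sum overlapped between the groups at a ratio of 1.02. The sum over all 12 names was 327 and 333 TPM in shControl and 312 and 322 TPM in shPHF8, that is 330 ± 3.91 and 317 ± 7.36 TPM (SD, n = 2), a ratio of 0.961. The shPHF8 sums were both lower, but the nearest libraries of the groups were no farther apart than the libraries within a group. Multiplied by transcript length, the ratio was 0.949. The sum without NPIPA3 was 313 and 319 TPM in shControl and 312 and 322 TPM in shPHF8, which overlapped. With PDXDC1 added, the sum was 360 and 364 TPM in shControl and 401 and 416 TPM in shPHF8.

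**Figure D4:**
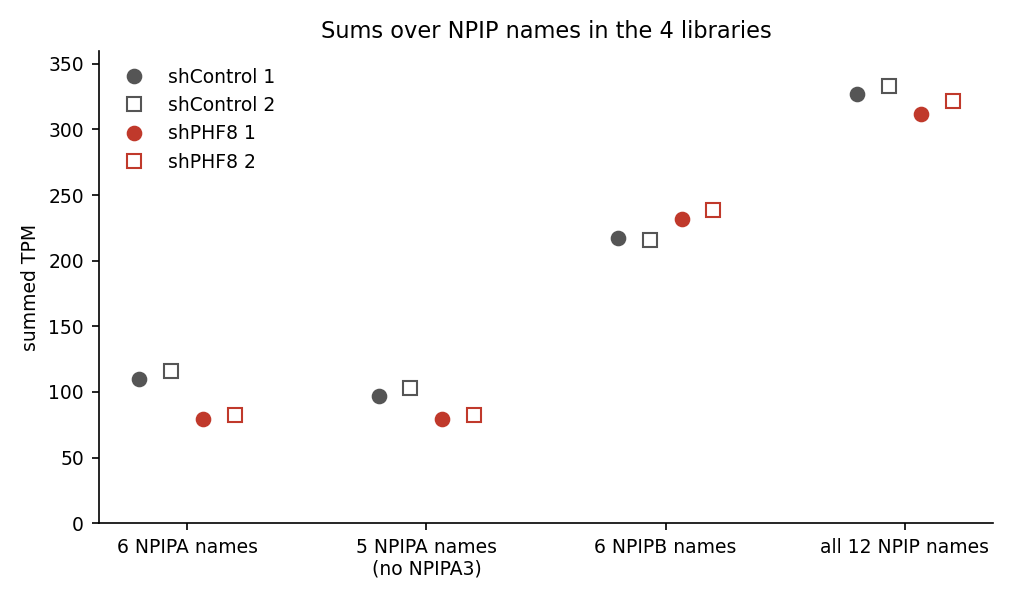
Summed TPM of sets of NPIP names in each library (grey, shControl; red, shPHF8; circles, number 1; squares, number 2). The NPIPA sum is lower in both shPHF8 libraries with NPIPA3 (79.5 and 82.8 against 110 and 116 TPM) and without it, the NPIPB sum is higher in TPM (but overlaps when multiplied by transcript length), and the sum over all 12 names spans 312 to 333 TPM.

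The spread between libraries of the same group was of ordinary size for the NPIP names. The median absolute difference between the libraries of a group was 0.27 on the log2 scale for NPIP transcripts and 0.18 for NPIP names, beside 0.38 for all transcripts and 0.17 for all genes tested. For the sum over all NPIP names the difference was 0.02 in shControl and 0.05 in shPHF8, and a sum of many values varies less than its parts. By these medians the NPIP names were about as stable as other genes, and their transcripts no less stable than other transcripts. Transcripts listed at 0 in both libraries of a group count there as no difference, among them all NPIPA3 transcripts in shPHF8. Single transcripts, such as NPIPA3-002 and NPIPA3-003, differed widely between the shControl libraries.

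How far sequence can tell the members apart was counted from GENCODE release 29, in which 41 of the 42 transcripts were found (36 with the same version). Each transcript was divided into all windows of 100 bases, and a window counted as the gene's own when no other gene's transcript held it. The NPIPA transcripts had 0% to 25.6% own windows (median 5.97%), with none in 5 of 15. The NPIPB transcripts had 0% to 86.1% (median 23.2%), with none in 2 of 20, and the PDXDC1 transcripts 79.2% to 93.2% (median 88.5%). With windows of 31 bases the medians were 0%, 7.86% and 72.5%. NPIPA names were therefore the least separable members and PDXDC1 the most.

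NPIPA3-001 had no window of its own at either length. NPIPA3-002 had 9.66% own windows of 100 bases and 1.33% of 31 bases, and NPIPA3-003 had 5.97% and 0.489%. NPIPA2 transcripts had no own window of 31 bases. Of the 100-base windows, 91.3% of NPIPA2-003 were also in NPIPA3. In addition, 34.8% of them were in PKD1P1, a pseudogene, and 34.8% in AC126755.2, and no value of either is used here. An NPIPA transcript had 31.5% (NPIPA3-002) to 100% of its 100-base windows also in a gene outside the NPIP names. For windows of 31 bases the range was 77.0% (NPIPA3-002) to 100%. For NPIPA5-201, NPIPA7-002 and NPIPA8-002 the share was 100% at both lengths. The NPIPA sums leave such genes out. Exchange with these further genes, or with NPIP genes outside the 12 (GENCODE release 29 has 18 protein-coding ones), was not tested. The windows that PDXDC1-017 shared with other genes (12.9% of 100 bases) included none held only by NPIP genes. They were in PDXDC2P, which is not among the listed gene names and also held 31.8% of the 31-base windows of PDXDC1-017. PDXDC2P-NPIPB14P, also not listed and counted here as outside the NPIP names, held 12.9% and 30.9% of these windows. For PDXDC1-016, PDXDC2P held 45.1% of the 31-base windows. Exchange of PDXDC1 reads with PDXDC2P or PDXDC2P-NPIPB14P was not tested.

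**Figure D5:**
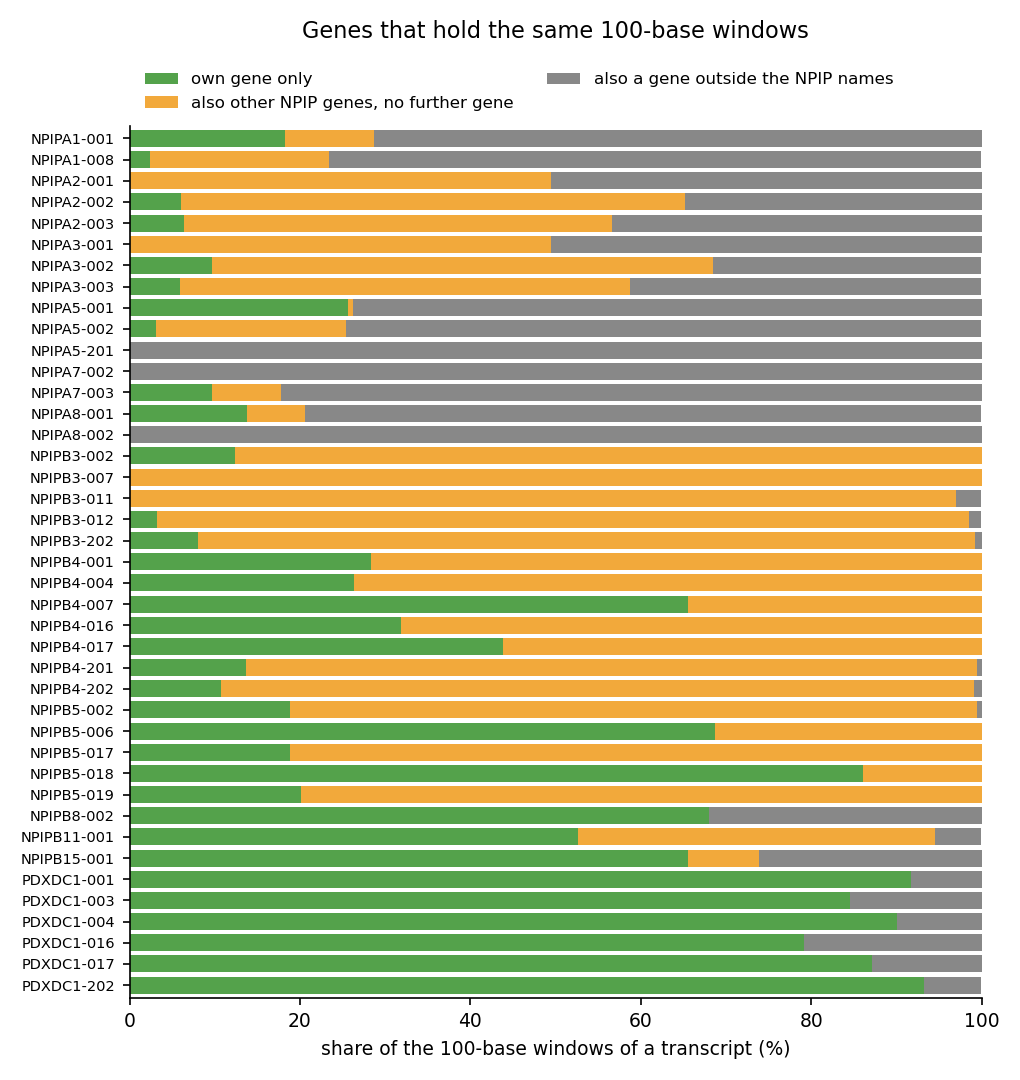
Share of the 100-base windows of each listed transcript (horizontal axis, percent) that only its own gene holds (green), that other NPIP genes hold but no further gene (orange), or that a gene outside the NPIP names holds (grey). PDXDC1 transcripts are 79.2% to 93.2% green, whereas no NPIPA transcript exceeds 25.6%.

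Other near-identical genes of chromosome 16 were looked at in the same way, by name and by sum. Of 18 tested members of such sets, limma called 0, with 1 higher and 2 lower at an unadjusted p under 0.05 and a median log2 difference of 0.04. Over all genes tested limma also called 0, and 9.9% were higher and 12.1% lower at that unadjusted cut. BOLA2, which encodes an iron-sulphur cluster assembly factor, was at 6.90 and 7.77 TPM in shControl and at 37.0 and 33.5 TPM in shPHF8 (2.12 ± 0.15, limma with Benjamini-Hochberg adjusted p = 0.0554). No gene had a smaller adjusted p, but the adjustment gives several genes the same value, so BOLA2 is not thereby the first gene. Its copy BOLA2B was at 65.2 and 77.9 TPM in shControl and at 73.3 and 63.3 TPM in shPHF8 and overlapped. The sum of the pair was 72.1 and 85.6 TPM in shControl and 110 and 96.8 TPM in shPHF8, a ratio of 1.31. BOLA2 and the pair differed by similar amounts of TPM, and the ratio of the pair was smaller because BOLA2B was the more abundant copy.

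The NOMO genes, whose proteins act in the membrane of the endoplasmic reticulum, lie beside NPIPA copies. NOMO3 was at 32.5 and 30.9 TPM in shControl and at 24.7 and 19.2 TPM in shPHF8 (-0.52 ± 0.17, limma with Benjamini-Hochberg adjusted p = 0.193), NOMO1 and NOMO2 had differences of 0.19 and 0.18, and the NOMO sum overlapped at a ratio of 1.04. The sulphotransferase gene SULT1A3 was at 8.64 and 6.92 TPM in shControl and at 2.53 and 3.96 TPM in shPHF8 (-1.06 ± 0.28, limma with Benjamini-Hochberg adjusted p = 0.151), whereas SULT1A4 and SULT1A1 overlapped between the groups and the sum of the 3 overlapped at a ratio of 0.873. The translation initiation factor genes EIF3C and EIF3CL each differed by 0.05. The nuclease subunit genes SLX1A and SLX1B differed by -0.09 and 0.07 and overlapped. In the NOMO and SULT1A sets a single name was lower in both shPHF8 libraries, while the sum over the set overlapped between the groups.

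Other genes near the NPIP blocks, among them the closely similar pair DDX19A and DDX19B, had a median log2 difference of 0.13 over 24 tested. Limma called 0 of them, as it did over all genes. At an unadjusted limma p under 0.05, 5 were higher and 1 lower, beside 9.9% and 12.1% of all genes tested. DDX19B, an RNA helicase of mRNA export, was at 28.2 and 22.2 TPM in shControl and at 40.7 and 39.5 TPM in shPHF8 (0.66 ± 0.16), and SF3B3, a splicing factor subunit, was at 123 and 133 TPM and at 104 and 100 TPM (-0.32 ± 0.08). Neither passed the test (limma with Benjamini-Hochberg adjusted p = 0.136 and 0.151). NTAN1 had the largest difference of these neighbours.

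PDXDC1 carries the domain of enzymes that use pyridoxal phosphate, and 30 genes of such enzymes and of the supply of the cofactor were tested. Limma called 0 of them, as it did over all genes. At an unadjusted limma p under 0.05, 2 were higher and 5 lower, beside 9.9% and 12.1% of all genes tested. The median log2 difference was -0.09 (range -1.20 to 0.66). All were below the difference of PDXDC1, which was picked for it. SGPL1, the sphingosine-1-phosphate lyase, was at 27.9 and 27.8 TPM in shControl and at 12.3 and 10.8 TPM in shPHF8 (-1.20 ± 0.14, limma with Benjamini-Hochberg adjusted p = 0.0696). GAD1, a glutamate decarboxylase, was at 9.53 and 12.2 TPM in shControl and at 4.47 and 4.29 TPM in shPHF8 (-1.13 ± 0.21, limma with Benjamini-Hochberg adjusted p = 0.103).

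NPIP takes its name from the nuclear pore complex, and 30 genes of its nucleoporins were tested. Limma called 0 of them, as it did over all genes. At an unadjusted limma p under 0.05, 4 were higher and 1 lower, beside 9.9% and 12.1% of all genes tested. The median log2 difference was 0.05 (range -0.30 to 0.49). NUP214, of the cytoplasmic face of the pore, was at 252 and 265 TPM in shControl and at 365 and 362 TPM in shPHF8 (limma with Benjamini-Hochberg adjusted p = 0.073). NUP50, of the nuclear basket, was at 58.1 and 49.6 TPM in shControl and at 73.9 and 70.3 TPM in shPHF8 (limma with Benjamini-Hochberg adjusted p = 0.168).

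The genes whose log2 profile over the 4 libraries, relative to the shControl mean, was nearest to that of PDXDC1 by Euclidean distance were AKAP12 (0.11), NUDT7 (0.13) and FAM120AOS (0.13). NUDT7 was at 4.58 and 3.90 TPM in shControl and at 13.1 and 14.6 TPM in shPHF8, at a lower level than PDXDC1. For NPIPA3 they included PRG2 (1.18) and CLC (1.45). PRG2, the eosinophil granule major basic protein, was at 54.4 and 50.7 TPM in shControl and at 4.33 and 6.59 TPM in shPHF8, and CLC was at 6.36 and 5.99 TPM in shControl and listed at 0 in both shPHF8 libraries. These distances were far larger than those for PDXDC1. With 4 libraries in 2 groups, such likeness rests mainly on the difference between the groups.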

How the data were processed

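RNA of 4 K562 libraries was grouped by title into 2 shControl and 2 shPHF8 libraries. The authors deposited 1 table of TPM per transcript, per the file headers, and each TPM column sums to 1000000. A further set of columns of deposited signal without a unit was a constant multiple of the TPM in each library and was not used. Per the submitters' processing notes, HISAT2 2.0.4, StringTie 1.2.3 and hg19 were used; annotation, strandedness and treatment of reads with several matches were not stated. No depth or counting error can be given.

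Gene names got the sum of their transcripts' TPM, used as log2(TPM + 1), a scale that understates differences of low genes. Names with a mean of at least 1 TPM (10972) and, in a separate fit, transcripts (30266) were fitted with limma 3.58.1 in R 4.3.3 (empirical Bayes with trend, two-sided, Benjamini-Hochberg threshold of 0.05). An exact permutation test of 2 against 2 libraries cannot go below 0.333. Simulated data for shPHF8 against shControl (10972 genes, 200 changed in each of 10 runs) gave calls for 37% of genes with a log2 change of 1, 87.3% with 2 and 97.4% with 3. The simulated spread depended only on a gene's level, whereas in the data genes of like level differ in spread too. Rates for the real data can therefore be lower and are not known. Members and lists were chosen with earlier results of these data known. Named are all members, per list the 2 genes with the smallest p, every gene of the near-identical sets, and the 3 nearest profiles of PDXDC1 and of NPIPA3 (some genes under these rules are not reported here); NTAN1 and RRN3 were added after their values were seen. Sequences come from GENCODE release 29 (GRCh38, not the build of the files); transcripts were matched by identifier and no coordinate was converted. Python 3.11.15 (pandas 2.3.3, matplotlib 3.10.9) made the tables and plots.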

Additional observations from a re-analysis of the deposited data

How the results depend on the processing

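Alternatives were a pseudocount of 0.1, a minimum mean of 5 TPM, no minimum, median-of-ratios scaling, quantile normalization, limma without the trend, the library number as a block and leaving out each library; either scaling moved the median of all genes by 0.02. PDXDC1 stayed between 1.42 and 1.5 with 1 library left out, and was 1.22 from TPM times transcript length, an alternative chosen after seeing the data, which gave 0.03 for the NPIPB sum in place of 0.12 and moved no other NPIP sum by more than the spread between libraries. The NPIPA sum stayed between -0.51 and -0.44, that without NPIPA3 between -0.34 and -0.25, the NPIPB sum between 0.10 and 0.14, the sum of NPIPA2 and NPIPA3 between -1.37 and -1.13, and the sum over all NPIP names between -0.08 and -0.03 with 1 library left out. With PDXDC1 included, the NPIP sum was 0.17 in place of -0.06. Quantile normalization gave 37 calls over all genes in place of 0; the cause was not tested. Signs of NPIPA1 (-0.87 to 0.32), NPIPB3 (-0.01 to 0.22), NPIPB5 (-0.08 to 0.05), NPIPB8 (-0.26 to 0.23) and NPIPB11 (-0.08 to 0.18) were not stable over these settings. The labels do not pair the libraries, and deviations of libraries with the same number correlated at -0.029; with the replicate number as a block, calls over all genes were 0 and PDXDC1 was 1.46.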
